A study of Mus musculus with 35 samples.

Results

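The genes described here carry out mRNA 3' end processing: Pabpn1, Papola, Cpsf1, Cpsf2, Cpsf3, Fip1l1, Nudt21, Cpsf6, Cstf2 and Pcf11. They were taken by gene name from the deposited expression table, and all 10 were found among the 9239 genes of the count table. Pabpn1 was chosen by its measured nuclear share, which was higher after Chtop knockdown, so its values in nuclei and cytoplasm are given as a description, with no test. The other 9 were listed for their function.

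Poly(A) RNA was sequenced in 35 libraries of mouse N2a Flp-In rtTA neuroblastoma cells. Each of 2 lines carries a doxycycline-inducible Chtop cDNA that resists the siRNA: without exon 5 in the mEx5 line and with exon 5 in the pEx5 line. The conditions were rescue (the single Chtop siRNA plus doxycycline), knockdown (the same siRNA, no doxycycline) and control (a non-targeting siRNA pool, no doxycycline), harvested at 72 h. Nuclei, cytoplasm and total lysate came from the same cultures, with 2 biological replicates per line, condition and fraction, except for 1 library in the cytoplasmic control of the pEx5 line. All groups thus share the N2a background, transfection and an integrated cDNA. No library received doxycycline with the control siRNA, so doxycycline itself and the cDNA cannot be told apart in the rescue. Knockdown used a single siRNA and control a pool. Loss of Chtop and other effects of that siRNA thus cannot be told apart in knockdown against control.

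Mammalian pre-mRNAs end by cleavage and addition of a poly(A) tail. The cleavage and polyadenylation specificity factor (CPSF) reads the AAUAAA signal and cuts, the cleavage stimulation factor (CstF) binds downstream of the cut, cleavage factors I and II help to place it and to end transcription, and poly(A) polymerase adds the tail. The nuclear poly(A)-binding protein Pabpn1 coats the growing tail, stimulates the polymerase and limits tail length. In human cells PABPN1 is also known to limit its own mRNA through retention of its last intron. Chtop binds RNA and acts with TREX, a complex that readies mRNA for export.

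The last intron of Pabpn1 is shown because annotated Pabpn1 transcripts differ in keeping it, and the counts are summed over transcripts. The intron spans 744 bases on chromosome 14 (54897273 to 54898016, plus strand, mm10, GENCODE M21). Of 9 annotated transcripts, 3 splice it out, 2 keep it whole inside an exon and 4 end or splice elsewhere. Its first and last 30 bases follow, with the splice-site dinucleotides in capitals.
Pabpn1 last intron, 5' end (chr14:54897273-54897302): GTcaggatagatgggctgctcctcttcccc
Pabpn1 last intron, 3' end (chr14:54897987-54898016): ttaacacctaactctccttctttcttccAG
Gene counts cannot separate spliced from intron-holding Pabpn1 RNA.

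CPSF reads a hexamer near the 3' end of mRNAs, and the genes' own transcripts were searched for it. The last 30 bases of 1 reference coding transcript per gene (GENCODE M21, mm10, transcript strand) were scanned for AATAAA and for its common variant ATTAAA, on that strand only. The AATAAA hexamer was found in 5 of the 10 genes and in 50.5% of 20062 reference transcripts, and ATTAAA in 1 of 10 and in 13.1%. The ends of the genes that changed with knockdown and held a hexamer are given with the signal in capitals.
Cpsf6 (chr10:117344673-117344702, minus strand): tcttgtattgaaAATAAAaacaaagttttg
Cstf2 (chrX:134086790-134086819, plus strand): ctgtcgtggattcAATAAAtattttaaaag
Cpsf2 (chr12:102006395-102006424, plus strand): tatttcgctaataAATAAAagatgctgagc
Pcf11 (chr7:92643543-92643572, minus strand): ATTAAAacttgtgattttttttccgtggga
Pabpn1, Papola, Cpsf1 and Cpsf3 held neither hexamer in this window, which says only that these letters were not in it.

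Libraries held 11681781 to 40105458 counts, and values are CPM, counts scaled to a common total per library. Chtop, the siRNA target, averaged 27.2 ± 7.38 CPM in total lysate of knockdown cells and 134 ± 6.48 CPM in control cells (SD, n = 4 each), a 5.13-fold fall (-2.36 on the log2 scale, SE 0.12, edgeR adjusted p = 3.6e-06). With doxycycline it averaged 223 ± 41.3 CPM in rescue cells (SD, n = 4), cDNA reads included. Between knockdown and control cells, nuclear Chtop fell only 1.79-fold (-0.84 on the log2 scale, SE 0.11, edgeR adjusted p = 5.9e-04). Cytoplasmic Chtop fell 6.19-fold (-2.63, SE 0.094, edgeR adjusted p = 4.1e-08). Its nuclear to cytoplasmic ratio rose by 1.80 on the log2 scale (SE 0.15, edgeR adjusted p = 2.6e-05). Of 13 neuronal and noradrenergic marker genes 9 averaged over 1 RPKM (reads per kilobase of transcript, scaled to sequencing depth), with a summed level of 1366 to 2049 RPKM per library. Fibroblast, macrophage and astrocyte markers each summed to at most 2.15 RPKM, and oligodendrocyte markers to 6.40 to 10.8 RPKM. The mitochondrial share was 0.63 to 1.61% of nuclear and 1.90 to 3.31% of cytoplasmic counts.

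Per gene length, Pabpn1 was the highest of the 10 and Pcf11 the lowest in total lysate of control cells. On the authors' RPKM scale the levels were 213 ± 10.9 for Pabpn1, 127 ± 6.95 for Papola, 89.5 ± 7.85 for Nudt21, 64.1 ± 4.19 for Cpsf1, 52.4 ± 3.23 for Fip1l1, 48.5 ± 2.44 for Cstf2, 40.1 ± 1.84 for Cpsf3, 27.3 ± 2.21 for Cpsf6, 16.02 ± 0.43 for Cpsf2 and 9.69 ± 0.59 for Pcf11 (SD, n = 4). Of these neighbours in the order, only Fip1l1 and Cstf2 had libraries that overlapped.

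Pabpn1 (ENSMUSG00000022194.15, chromosome 14, 54892500 to 54898169, plus strand, mm10) lay much higher in the nuclei of knockdown cells than in those of control cells. Nuclear libraries of the mEx5 line held 531 and 499 CPM in knockdown cells, against 273 and 307 CPM in control cells. Nuclear libraries of the pEx5 line held 604 and 548 CPM in knockdown cells, against 290.0 and 312 CPM in control cells. Every knockdown library lay above every control library in both lines, as for 12.7% of all genes, and the choice of Pabpn1 used these libraries. The nuclear log2 fold change was 0.92 (SE 0.085, 1.89-fold), the 96th highest of 9239 genes. In bulk libraries, more cells carrying an RNA and more RNA per cell cannot be told apart.

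Cytoplasmic Pabpn1 differed little. Knockdown libraries held 152, 137, 135 and 139 CPM in cytoplasm, against 159, 144 and 147 CPM in control libraries. The groups overlapped, and the cytoplasmic log2 fold change was -0.13 (SE 0.073). Total lysate was not used to choose Pabpn1, but it came from the same cultures and holds their nuclear RNA. Its tests are therefore not independent of that choice. Knockdown libraries held 228, 187, 221 and 190 CPM in total lysate, against 179, 163, 176 and 167 CPM in control libraries. All 4 knockdown libraries lay above all 4 control libraries, as they did for 20.6% of all genes. The log2 fold change in total lysate was 0.26 (SE 0.097) and did not pass the test (edgeR adjusted p = 0.053). Replicate numbers pair the total and nuclear libraries, and when the number was fitted as a block the same difference passed (log2 fold change 0.25, SE 0.060, edgeR adjusted p = 0.0015). It also passed with DESeq2 (DESeq2 adjusted p = 0.038) and in edgeR without mEx5 knockdown replicate 2, pEx5 knockdown replicate 2 or pEx5 rescue replicate 2 (log2 fold change 0.26 to 0.34). In all it passed in 3 of 12 refits that each left out 1 library; it was lowest without mEx5 knockdown replicate 1 (0.16, edgeR adjusted p = 0.18), and the highest edgeR adjusted p was 0.19. The total lysate difference passed with scaling by library totals (edgeR adjusted p = 0.029) and with all libraries in 1 fit (edgeR adjusted p = 0.010). It did not pass in edgeR with DESeq2's size factors (edgeR adjusted p = 0.057) or without the low-count filter (edgeR adjusted p = 0.057). Nor did it pass under the authors' scaling factors (0.22, SE 0.13, edgeR adjusted p = 0.20).

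**Figure D1:**
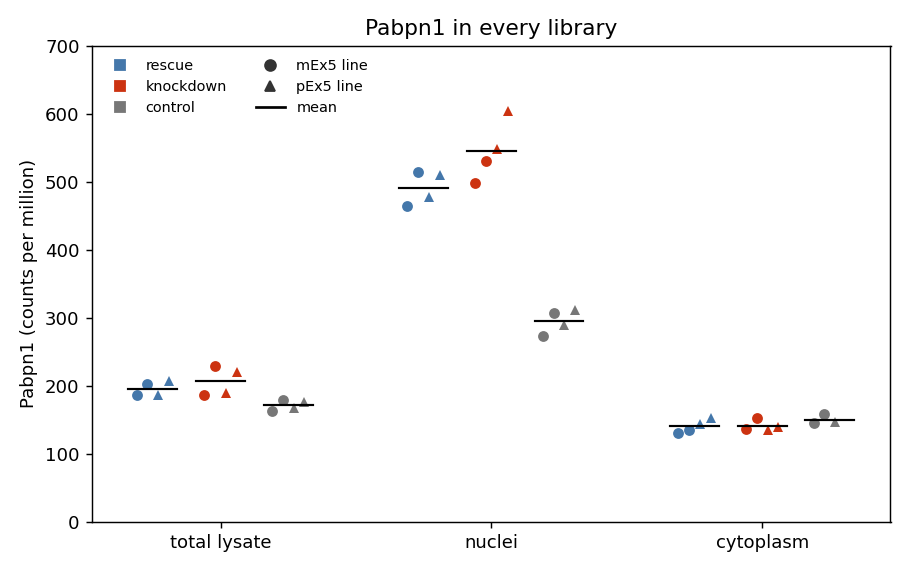
Pabpn1 in CPM (vertical axis) in every library, by fraction (horizontal axis); colours mark rescue, knockdown and control, symbols mark the line, and bars are group means. Nuclear knockdown libraries sit at 499 to 604 CPM and nuclear rescue libraries at 464 to 514 CPM, above control libraries at 273 to 312 CPM, while cytoplasmic libraries of all conditions lie between 131 and 159 CPM.

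The nuclear to cytoplasmic ratio of Pabpn1 was taken within each culture on a log2 scale. It used CPM rescaled by edgeR's TMM factors over both fractions, unlike the CPM given above. The ratio was 1.93 to 2.24 in 4 knockdown cultures, 1.74 to 2.05 in 4 rescue cultures and 0.77 to 1.11 in 3 control cultures. The knockdown and rescue cultures thus all lay above the control cultures. The fitted shift of this ratio with knockdown was 1.07 (SE 0.11), and by line it was 1.02 for mEx5 cells and 1.11 for pEx5 cells. It was the 16th highest of 9239 genes. Pabpn1 was chosen by this ratio, so that rank and the separation of knockdown from control cultures follow from the choice. The share of all genes with cultures so separated is not given. Malat1 and Neat1, noncoding RNAs of the nucleus, show how the fractions themselves stood. Their ratios were taken from CPM without the TMM factors, so they are not on the scale of the Pabpn1 ratios. Malat1 had log2 ratios of 3.67 to 4.02 in knockdown, 3.61 to 4.30 in rescue and 4.16 to 4.22 in control cultures. Neat1 had 2.41 to 3.40 in knockdown, 2.75 to 3.03 in rescue and 3.50 to 3.90 in control cultures. On this scale both were lower in knockdown than in control cultures, while Malat1 in rescue overlapped control. What the make-up of the fractions adds to the Pabpn1 ratio was not tested. Mitochondrial transcripts took 2.27 to 3.31% of cytoplasmic counts in knockdown cells and 1.90 to 2.09% in control cells, and their part in the result was not tested.

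The upstream gene Bcl2l2 and the read-through gene Gm20521, annotated across Bcl2l2 and Pabpn1 on the same strand, bear on how Pabpn1 reads were assigned. Bcl2l2, an anti-apoptotic gene of the Bcl2 family, averaged 42.0 ± 5.47 CPM in nuclei of knockdown cells and 53.3 ± 6.40 CPM in those of control cells (SD, n = 4 each), and its change did not pass the test (edgeR adjusted p = 0.082). Gm20521 had 1.40 to 2.30 RPKM in nuclei of knockdown cells and 0.67 to 1.30 RPKM in those of control cells. Its knockdown libraries lay above its control libraries, at a level far under that of Pabpn1. Since both genes share exons, reads could be split between them, and the Pabpn1 values carry that uncertainty.

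The mRNA of several other processing genes differed between knockdown and control cells, in both directions. In total lysate 4 of the 10 genes passed the test, 2 higher and 2 lower, where 43.9% of all genes passed, 21.4% higher and 22.6% lower. In nuclei 5 of the 9 tested genes passed, 3 higher and 2 lower (31.4% of all genes, 15.4% higher and 16% lower). In cytoplasm 4 of 9 passed, 2 higher and 2 lower (40.7% of all genes, 19.8% higher and 20.9% lower). The shares in total lysate and cytoplasm lie near those of all genes. Over all genes, knockdown libraries lay wholly above control libraries for 20.6% in total lysate, 12.7% in nuclei and 26.9% in cytoplasm, and wholly below for 17.7% in total lysate, 17.2% in nuclei and 17.2% in cytoplasm. The median log2 fold change of the 10 was -0.01 in total lysate, 0.03 in nuclei and -0.04 in cytoplasm, against 0.01, 0.00 and 0.00 over all genes.

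**Figure D2:**
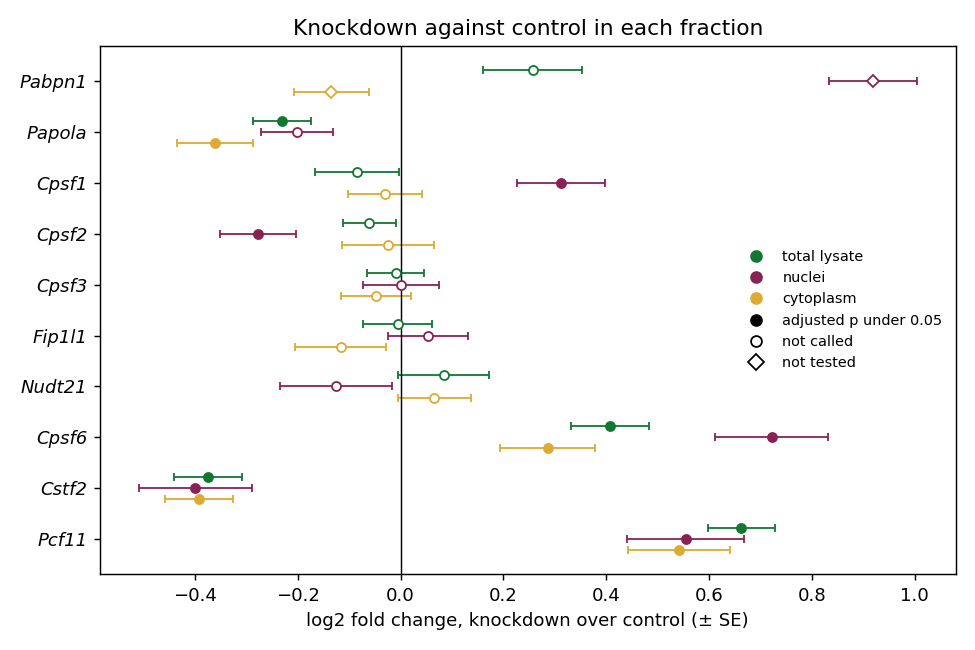
Log2 fold change of knockdown over control (horizontal axis, with SE) for each gene (vertical axis) in total lysate, nuclei and cytoplasm; filled points passed edgeR's test at an adjusted p under 0.05, open circles did not, and open diamonds were not tested. Pcf11 and Cpsf6 sit right of 0 and Cstf2 left of 0 in every fraction, and the nuclear value of Pabpn1, 0.92, is the highest.

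Papola (chromosome 12, 105784694 to 105838944, plus strand) encodes the canonical poly(A) polymerase. Its cytoplasmic libraries held 173, 155, 150.4 and 146 CPM in knockdown cells, against 192, 182 and 200.0 CPM in control cells. All knockdown libraries were lower, and cytoplasmic Papola fell 1.28-fold (-0.36 on the log2 scale, SE 0.074, edgeR adjusted p = 0.0026). In total lysate it averaged 118 ± 2.10 CPM in knockdown cells and 137 ± 6.66 CPM in control cells (SD, n = 4 each), a log2 fold change of -0.23 (SE 0.057, edgeR adjusted p = 0.0090). The nuclear difference of -0.20 (SE 0.070) did not pass (edgeR adjusted p = 0.052), but did when replicate number was fitted as a block (edgeR adjusted p = 0.0071), and without either pEx5 rescue library (edgeR adjusted p of at most 0.043). The nuclear difference also passed with DESeq2 (DESeq2 adjusted p = 0.020), with library totals (edgeR adjusted p = 0.029) and with all libraries in 1 fit (edgeR adjusted p = 0.0090). The fall in total lysate depended on scaling. With the factors per gene and library that the authors' normalized counts hold, it turned to 0.13 (SE 0.080, edgeR adjusted p = 0.23). Without the 1 cytoplasmic control of the pEx5 line, which leaves the mEx5 line alone for this contrast, the cytoplasmic fall no longer passed (edgeR adjusted p = 0.067).

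Of the CPSF genes, Cpsf1 and Cpsf2 changed in nuclei. Cpsf1 (chromosome 15, 76595803 to 76607591, minus strand) encodes the large scaffold subunit of CPSF. Its nuclear libraries held 325, 347, 317 and 324 CPM in knockdown cells, against 247, 295, 262 and 281 CPM in control cells. All knockdown libraries were higher, and nuclear Cpsf1 rose 1.24-fold (0.31 on the log2 scale, SE 0.085, edgeR adjusted p = 0.019). In total lysate and cytoplasm its log2 fold changes were -0.09 (SE 0.082) and -0.03 (SE 0.072), and neither passed.

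Cpsf2 (chromosome 12, 101975988 to 102006424, plus strand) encodes a subunit without catalytic activity that resembles the endonuclease. Its nuclear libraries held 44.8, 51.8, 52.5 and 50.4 CPM in knockdown cells, against 62.6, 61.5, 60.1 and 63.7 CPM in control cells. All knockdown libraries were lower, and nuclear Cpsf2 fell 1.21-fold (-0.28 on the log2 scale, SE 0.074, edgeR adjusted p = 0.018). Both nuclear calls were weak: leaving out 1 library in turn, Cpsf1 missed the threshold without mEx5 control replicate 1, mEx5 knockdown replicate 2, pEx5 control replicate 1 or pEx5 knockdown replicate 2, and Cpsf2 without mEx5 control replicate 1, mEx5 knockdown replicate 1, pEx5 control replicate 2 or pEx5 knockdown replicate 2. The highest adjusted p in these refits was 0.076 for Cpsf1 and 0.072 for Cpsf2.

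Cpsf3 (chromosome 12, 21285391 to 21315056, plus strand), the endonuclease that cuts the pre-mRNA, kept within 58.1 to 75.5 CPM in every library of the study. Its log2 fold changes with knockdown were -0.01 (SE 0.055) in total lysate, 0.00 (SE 0.074) in nuclei and -0.05 (SE 0.068) in cytoplasm, and none passed. Fip1l1 (chromosome 5, 74535449 to 74598800, plus strand) encodes a subunit that binds U-rich RNA and tethers the poly(A) polymerase. Its log2 fold changes were -0.01 (SE 0.067) in total lysate, 0.05 (SE 0.077) in nuclei and -0.12 (SE 0.088) in cytoplasm, and none passed.

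Cleavage factor I pairs Nudt21, which binds UGUA sequences, with a larger subunit such as Cpsf6. The mRNA of Cpsf6 (chromosome 10, 117344673 to 117380015, minus strand) was higher in every fraction of knockdown cells. Nuclear libraries held 193, 161, 212 and 171 CPM in knockdown cells, against 133, 117, 115 and 95.1 CPM in control cells. The groups did not overlap, and nuclear Cpsf6 rose 1.65-fold (0.72 on the log2 scale, SE 0.11, edgeR adjusted p = 0.0011). In total lysate it averaged 96.5 ± 4.94 CPM in knockdown cells and 72.1 ± 5.43 CPM in control cells (SD, n = 4 each), a log2 fold change of 0.41 (SE 0.076, edgeR adjusted p = 0.0021). The cytoplasmic rise of 0.29 (SE 0.093, edgeR adjusted p = 0.029) was lost without mEx5 control replicate 2, mEx5 knockdown replicate 1 or pEx5 knockdown replicate 1, with an adjusted p of at most 0.089.

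Nudt21 (chromosome 8, 94015496 to 94037031, minus strand) did not pass in any fraction. Its nuclear libraries held 58.1 to 66.8 CPM in knockdown cells and 60.1 to 86.3 CPM in control cells, which overlapped. Its log2 fold changes were 0.08 (SE 0.089) in total lysate, -0.13 (SE 0.11) in nuclei and 0.07 (SE 0.070) in cytoplasm.

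Cstf2 (chromosome X, 134059187 to 134086819, plus strand) encodes the CstF subunit that binds GU-rich RNA downstream of the cut, and its mRNA fell in all 3 fractions. Total libraries held 93.0, 107.5, 94.98 and 102.5 CPM in knockdown cells, against 129, 135, 127 and 120.5 CPM in control cells. All knockdown libraries were lower, with a log2 fold change of -0.37 (SE 0.065, edgeR adjusted p = 0.0015). The log2 fold change was -0.40 (SE 0.11, edgeR adjusted p = 0.020) in nuclei and -0.39 (SE 0.066, edgeR adjusted p = 8.1e-04) in cytoplasm. The nuclear call missed the threshold without mEx5 control replicate 2, mEx5 knockdown replicate 1, pEx5 control replicate 2 or pEx5 knockdown replicate 1, with an adjusted p of at most 0.079.

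The paralogue Cstf2t, an autosomal retrogene of Cstf2 (chromosome 19, 31082837 to 31087069, plus strand), rose in the same libraries. In total lysate Cstf2t averaged 51.7 ± 4.54 CPM in knockdown cells and 34.5 ± 2.87 CPM in control cells (SD, n = 4 each), a log2 fold change of 0.57 (SE 0.083, edgeR adjusted p = 5.3e-04). Its log2 fold change was 0.37 (SE 0.083, edgeR adjusted p = 0.0081) in nuclei and 0.42 (SE 0.074, edgeR adjusted p = 0.0010) in cytoplasm. The sum of both genes averaged 151 ± 10.4 CPM in knockdown cells and 162 ± 5.77 CPM in control cells in total lysate (SD, n = 4 each), with libraries that overlapped. In nuclei the sum averaged 178 ± 14.3 CPM in knockdown cells and 216 ± 18.0 CPM in control cells (SD, n = 4 each), also with an overlap. In cytoplasm it was 179 to 189 CPM in 4 knockdown libraries and 195 to 202 CPM in 3 control libraries, which did not overlap. The genes are close copies, so reads could be split between them, and this was not tested.

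**Figure D3:**
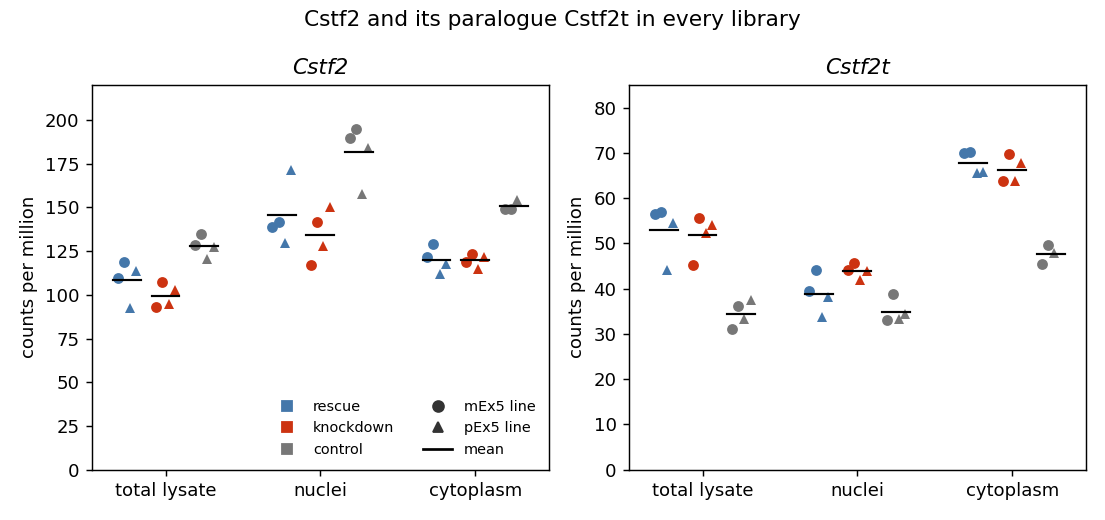
CPM (vertical axes) of Cstf2 (left) and its paralogue Cstf2t (right) in every library, by fraction (horizontal axis) and condition (colours), with group means as bars. Knockdown libraries of total lysate lie at 93.0 to 107.5 CPM for Cstf2 and 45.2 to 55.5 CPM for Cstf2t, against 120.5 to 135 CPM and 31.1 to 37.5 CPM in control libraries.

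Pcf11 (chromosome 7, 92643543 to 92669934, minus strand), the cleavage factor II subunit that binds RNA polymerase II and acts in transcription termination, had the largest rise of the 10 genes in total lysate. Total libraries held 41.0, 42.2, 49.1 and 44.0 CPM in knockdown cells, against 29.3, 27.5, 27.2 and 26.1 CPM in control cells. The groups were well apart, and Pcf11 rose 1.58-fold (0.66 on the log2 scale, SE 0.065, edgeR adjusted p = 5.7e-05). The rise was 0.55 (SE 0.11, edgeR adjusted p = 0.0052) in nuclei and 0.54 (SE 0.099, edgeR adjusted p = 0.0013) in cytoplasm. The total lysate value was 0.54 for mEx5 cells and 0.79 for pEx5 cells, and the value over both lines was the 304th highest of 9237 genes. The difference between the lines in the knockdown effect in total lysate did not pass for any of the 10 genes (edgeR adjusted p = 0.99995).

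**Figure D4:**
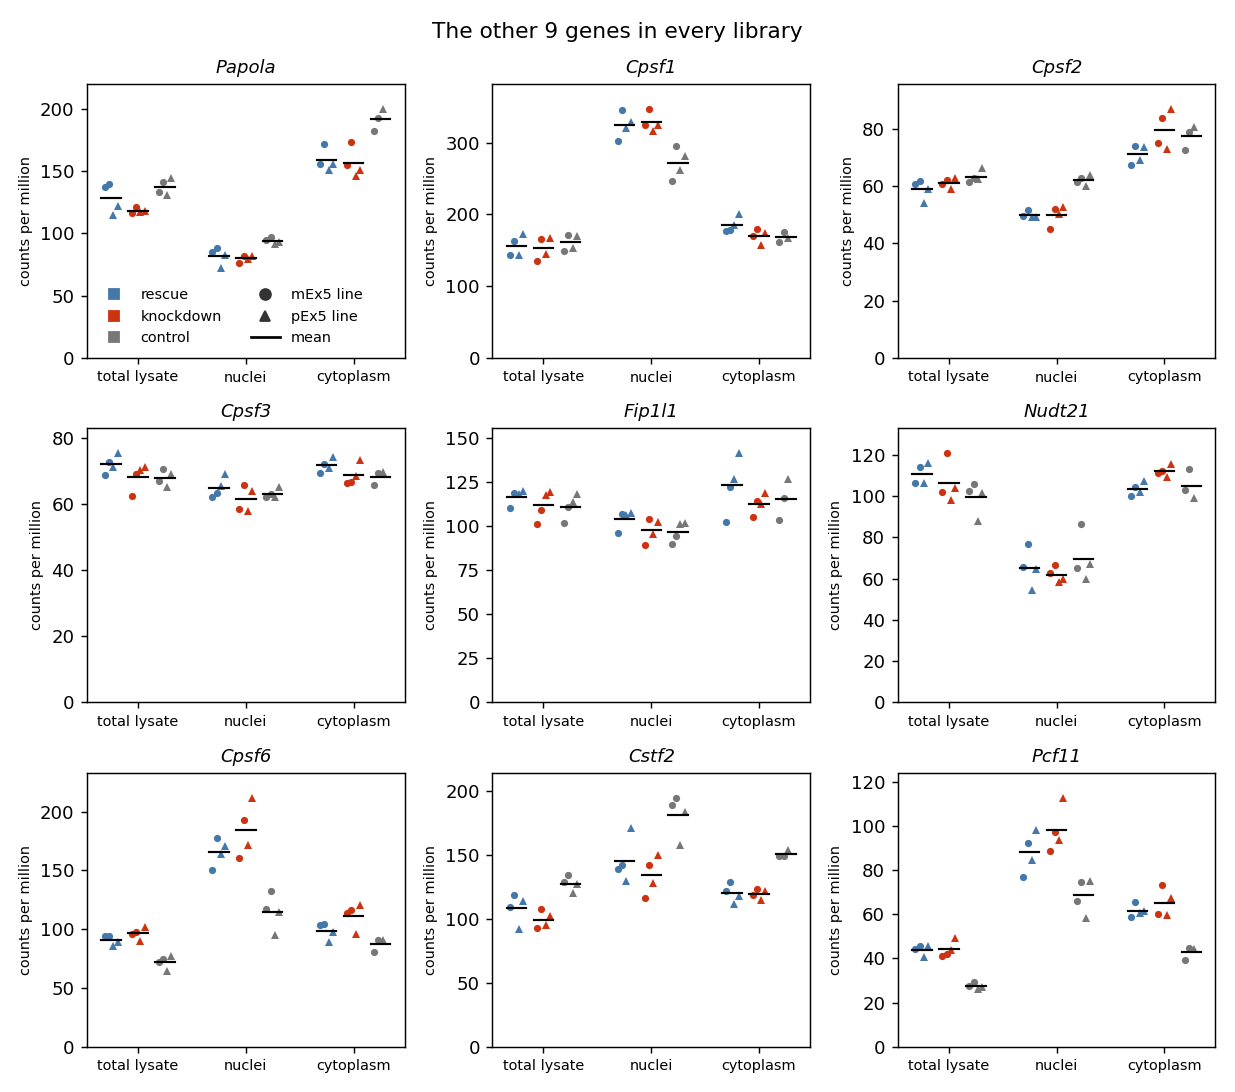
CPM (vertical axes) of the other 9 genes in every library, by fraction (horizontal axes); colours mark condition, symbols mark the line, and bars are group means. Rescue libraries lie near knockdown libraries for Pcf11, Cpsf6 and Cstf2, with total lysate means for Pcf11 of 44.0 CPM in rescue, 44.1 CPM in knockdown and 27.5 CPM in control cells.

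Rescue was set against knockdown to ask whether re-expressed Chtop moved these genes. None of the 10 genes in total lysate, nor of the 9 tested in nuclei, cytoplasm and nuclear to cytoplasmic ratio, passed edgeR's test, and DESeq2 called none either. At an unadjusted p under 0.05, 0 genes were found in total lysate, 0 in nuclei, 1 (Cpsf6) in cytoplasm and 0 in the ratio. The whole table held few calls as well: 0.0217% of genes in total lysate, 0.0108% in nuclei, 0.0433% in cytoplasm (0.0325% higher and 0.0108% lower) and 0.0216% in the ratio, Chtop among them in all 4. Cpsf6 in cytoplasm had a log2 fold change of -0.19 (SE 0.082, edgeR adjusted p = 0.51), and without pEx5 knockdown replicate 2 it passed (edgeR adjusted p = 0.026). Nuclear Pabpn1 held 464, 514, 510 and 478 CPM in rescue libraries, which overlapped the knockdown libraries, with a log2 fold change of -0.18 (SE 0.084). In total lysate the rescue effect on Pabpn1 was -0.09 (SE 0.096, edgeR adjusted p = 0.83).

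Rescue cells also differed from control cells, whose libraries the knockdown contrast shares. In total lysate 3 of the 10 genes passed, 2 higher and 1 lower (37.3% of all genes, 18.3% higher and 19% lower): Pcf11 rose by 0.65 (SE 0.065, edgeR adjusted p = 9.3e-05), Cpsf6 rose by 0.31 (SE 0.076, edgeR adjusted p = 0.010) and Cstf2 fell by 0.26 (SE 0.065, edgeR adjusted p = 0.012) on the log2 scale. Fitting replicate number as a block, 7 of 10 passed, adding Pabpn1 (0.17, edgeR adjusted p = 0.022), Nudt21 (0.13, edgeR adjusted p = 0.029), Papola (-0.12, edgeR adjusted p = 0.036) and Cpsf2 (-0.13, edgeR adjusted p = 0.037). The 37.3% belongs to the fit without this block, and the share of all genes with it is not given. Under the authors' scaling factors Papola turned to a rise of 0.28 (SE 0.080, edgeR adjusted p = 0.023).

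In nuclei of rescue cells 3 of the 9 tested genes passed against control, 2 higher and 1 lower (23.7% of all genes, 11.5% higher and 12.2% lower). Cpsf6 had a log2 fold change of 0.54 (SE 0.11, edgeR adjusted p = 0.0072), Pcf11 0.37 (SE 0.11, edgeR adjusted p = 0.042) and Cpsf2 -0.31 (SE 0.075, edgeR adjusted p = 0.015). Under that block 6 of 9 passed, and the 23.7% is again from the fit without it. The block added Cpsf1 (0.26, edgeR adjusted p = 0.0013), Cstf2 (-0.32, edgeR adjusted p = 4.0e-04) and Papola (-0.20, edgeR adjusted p = 0.0099). Without pEx5 control replicate 2 only Cpsf6 passed. The Pcf11 call was also lost without mEx5 control replicate 1 or 2, mEx5 knockdown replicate 1 or 2, mEx5 rescue replicate 1 or pEx5 rescue replicate 1 (edgeR adjusted p of at most 0.14), and the Cpsf2 call without mEx5 rescue replicate 2 (edgeR adjusted p = 0.060). Cpsf1 passed without mEx5 control replicate 2 (edgeR adjusted p = 0.037), and Papola and Cstf2 without pEx5 rescue replicate 2 (edgeR adjusted p = 0.039 and 0.022), which gave 5 calls. The description for Pabpn1 in these nuclei was a log2 fold change of 0.74 (SE 0.085).

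In cytoplasm of rescue cells 3 of 9 passed against control, 1 higher and 2 lower (35.7% of all genes, 17.2% higher and 18.4% lower). Pcf11 had a log2 fold change of 0.45 (SE 0.098, edgeR adjusted p = 0.0045), Cstf2 -0.40 (SE 0.066, edgeR adjusted p = 9.4e-04) and Papola -0.35 (SE 0.074, edgeR adjusted p = 0.0039). The Papola call was lost without the 1 control library of the pEx5 line (edgeR adjusted p = 0.086) and under the authors' scaling factors (-0.16, edgeR adjusted p = 0.09996).

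Chtop cDNA with and without exon 5 were compared through the rescue effect, rescue against knockdown, in the pEx5 line minus that in the mEx5 line. For Pabpn1 the difference was 0.08 (SE 0.19) in total lysate, -0.13 (SE 0.17) in nuclei, 0.20 (SE 0.13) in cytoplasm and -0.33 (SE 0.20) in the nuclear to cytoplasmic ratio, on the log2 scale. Its nuclear, cytoplasmic and ratio values come from libraries that chose the gene and are a description; the total lysate difference did not pass (edgeR adjusted p = 0.999). None of the other 9 genes passed edgeR's test or had an unadjusted p under 0.05 in any of the 4, and edgeR called 0% of all genes in each. DESeq2 called none of the 9 either, but in cytoplasm it gave none of them an adjusted p. A p that misses the threshold does not show that both cDNAs act alike.

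The genes were spread differently between the compartments of control cells. Of the 9 tested, 8 passed between nuclei and cytoplasm, 4 higher and 4 lower in nuclei (69.9% of all genes, 33.8% higher and 36.1% lower). Papola had the lowest nuclear share, with a log2 ratio of nuclei to cytoplasm of -1.03 (SE 0.071, edgeR adjusted p = 5.8e-09). Nudt21 at -0.57 (SE 0.098, edgeR adjusted p = 8.6e-05), Cpsf2 at -0.32 (SE 0.084, edgeR adjusted p = 0.0027) and Fip1l1 at -0.28 (SE 0.086, edgeR adjusted p = 0.0094) were also lower in nuclei. Cpsf1 at 0.70 (SE 0.084, edgeR adjusted p = 2.2e-06), Pcf11 at 0.67 (SE 0.12, edgeR adjusted p = 1.3e-04), Cpsf6 at 0.38 (SE 0.12, edgeR adjusted p = 0.0074) and Cstf2 at 0.27 (SE 0.10, edgeR adjusted p = 0.025) were higher in nuclei. Cpsf3 at -0.11 (SE 0.069, edgeR adjusted p = 0.16) did not pass, and Pabpn1 at 1.00 (SE 0.084) is given with no test.

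Several of these shares depend on scaling. Under the authors' factors Cstf2 turned to -0.06 (edgeR adjusted p = 0.67) and Cpsf6 to -0.11 (edgeR adjusted p = 0.32), Cpsf3 turned to 0.33 (edgeR adjusted p = 0.014), and Fip1l1 no longer passed (-0.11, edgeR adjusted p = 0.31). In the authors' deposited table the log2 ratio in control cells was 1.88 for Cpsf1, 0.85 for Pabpn1 and -0.09 for Cpsf6. The Cstf2 call was also lost with the culture as a block (edgeR adjusted p = 0.077) and without mEx5 nuclear control replicate 2, pEx5 nuclear control replicate 2 or mEx5 cytoplasmic control replicate 2 (edgeR adjusted p of at most 0.095). The Fip1l1 call was lost without the 1 cytoplasmic control of the pEx5 line (edgeR adjusted p = 0.061).

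Pabpn1 was not tested for the shift of the nuclear to cytoplasmic ratio, and none of the others passed with knockdown. Of 9 tested genes 0 passed edgeR's test and 2 had an unadjusted p under 0.05, where 5.14% of all genes passed, 3.83% higher and 1.31% lower. These were Cpsf6 at 0.45 (SE 0.15, edgeR adjusted p = 0.10) and Cpsf1 at 0.35 (SE 0.11, edgeR adjusted p = 0.074) on the log2 scale. Without the 1 cytoplasmic control of the pEx5 line, which leaves the mEx5 line alone, Cpsf6 stood at 0.20 (SE 0.20, edgeR adjusted p = 0.63). DESeq2 called 1, Cpsf1 (DESeq2 adjusted p = 0.024), as did edgeR with the authors' factors (0.66, edgeR adjusted p = 0.017) and without mEx5 nuclear control replicate 2 (edgeR adjusted p = 0.036). By culture, with CPM rescaled by TMM factors, the log2 ratio of Cpsf1 was 1.00 to 1.09 in knockdown cultures and 0.60 to 0.76 in control cultures. In rescue against control 0 of 9 passed (5.13% of all genes, 3.18% higher and 1.95% lower), 1 of them, Cpsf6, with an unadjusted p under 0.05 (0.45, edgeR adjusted p = 0.092, and 0.19 with an edgeR adjusted p = 0.61 without that library), and DESeq2 called 0. The authors' deposited table gave shifts with knockdown of 1.07 for Pabpn1, 0.67 for Cpsf1, 0.36 for Cpsf6 and 0.35 for Papola.

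**Figure D5:**
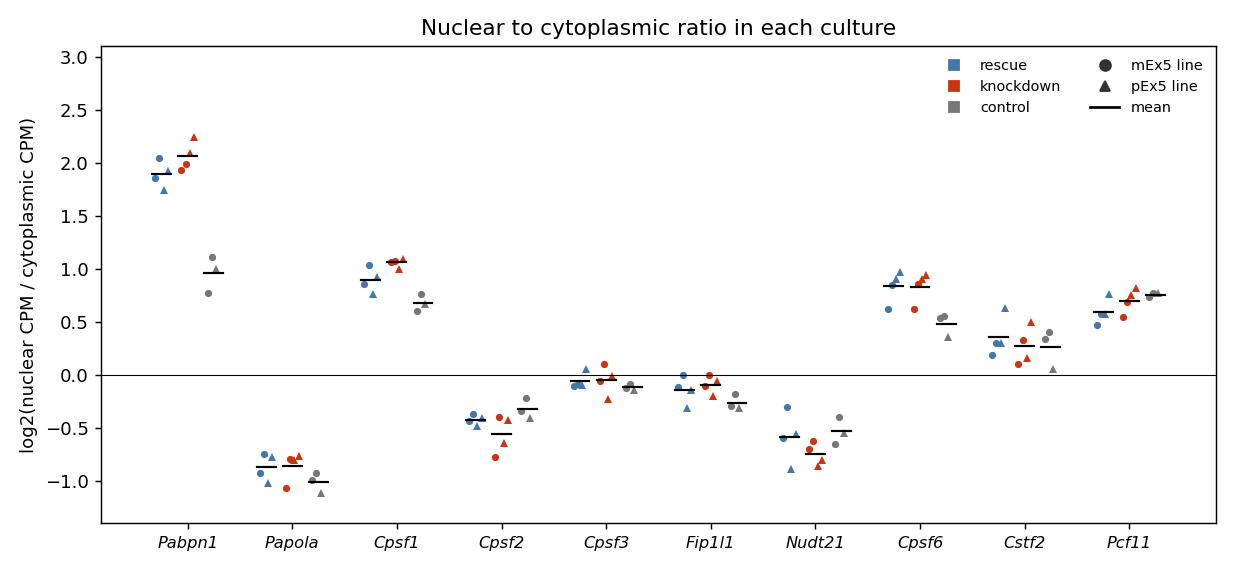
Log2 ratio of nuclear to cytoplasmic CPM, rescaled by TMM factors over both fractions (vertical axis), in each culture, by gene (horizontal axis). Colours mark rescue, knockdown and control, and symbols mark the line. Pabpn1 lies at 1.93 to 2.24 in knockdown and 1.74 to 2.05 in rescue cultures, above 0.77 to 1.11 in control cultures, while Papola lies under 0 in all of them.

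Genes that followed Pabpn1 across libraries were ranked by Pearson's r of log2 CPM after each fraction's mean was subtracted, over 35 libraries and 8753 genes. The most alike were Tmem234 (r = 0.88), Idh3b (0.86), Brf1 (0.86), Rdm1 (0.86) and Alkbh6 (0.86), and the least alike were Xpr1 (-0.83), Pxdn (-0.82) and Gna13 (-0.81). Within the set Cpsf6 followed Pabpn1 most closely (r = 0.74) and Cpsf2 least (r = -0.60). The points share cultures and conditions, so these values are a description only.

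The wider pathway was described by lists of 61 further gene symbols, which hold both an older and a newer name of some genes. Of these symbols 49 were tested. With knockdown 14 rose and 6 fell in total lysate, where 21.4% of all genes rose and 22.6% fell (median log2 fold change 0.13, against 0.01 over all genes). In nuclei 12 rose and 1 fell, where 15.4% of all genes rose and 16% fell (median 0.13, against 0.00). In cytoplasm 16 rose and 4 fell, where 19.8% of all genes rose and 20.9% fell (median 0.13, against 0.00). For the ratio 3 rose and 0 fell, where 3.83% of all genes rose and 1.31% fell (median 0.01, against 0.01). Each further gene named here and in the next paragraph is given only in the fraction where its adjusted p was lowest. A change named in 1 fraction is thus not shown to be particular to it. Among cleavage factors, Cpsf7, the alternative large subunit of cleavage factor I, rose by 0.49 in nuclei (SE 0.085, edgeR adjusted p = 0.0023), and Cstf3, the CstF scaffold, by 0.54 in total lysate (SE 0.12, edgeR adjusted p = 0.0052). Sympk, the scaffold symplekin, fell by 0.25 in total lysate (SE 0.082, edgeR adjusted p = 0.034). Rprd1a, which binds the tail of RNA polymerase II, rose by 0.80 in nuclei (SE 0.076, edgeR adjusted p = 1.4e-04), and its relative Rprd1b by 0.47 in cytoplasm (SE 0.077, edgeR adjusted p = 7.0e-04). Scaf8, an anti-terminator of polyadenylation, rose by 0.55 in cytoplasm (SE 0.083, edgeR adjusted p = 4.0e-04).

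Of 10 genes for deadenylases, which shorten tails, 3 rose in total lysate, 2 in nuclei and 3 in cytoplasm, and 0 fell in each. Of 5 tested genes that link nuclear polyadenylated RNA to the exosome, 0 passed in total lysate, 2 rose in nuclei, and 1 rose and 1 fell in cytoplasm. Of all genes, 43.9% passed in total lysate, 31.4% in nuclei and 40.7% in cytoplasm. The deadenylase subunits Pan3 (0.46, edgeR adjusted p = 5.3e-04) and Cnot7 (0.34, edgeR adjusted p = 0.0039) rose in total lysate. In nuclei Zfc3h1, which acts in this link together with PABPN1 in human cells, rose by 0.60 (SE 0.083, edgeR adjusted p = 7.4e-04). Rbm27 rose there by 0.25 (SE 0.080, edgeR adjusted p = 0.039). In cytoplasm Zc3h3 rose by 0.33 (SE 0.099, edgeR adjusted p = 0.020) and Rbm26 fell by 0.27 (SE 0.089, edgeR adjusted p = 0.028). Lsm11, of the histone mRNA 3' end machinery, fell by 0.36 in total lysate (SE 0.085, edgeR adjusted p = 0.0069), and Slbp, which binds the histone stem-loop, rose by 0.39 there (SE 0.11, edgeR adjusted p = 0.018).

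The authors' deposited table marks genes that overlap Chtop iCLIP, a map of crosslinked Chtop on RNA. It marks 7 of the 10 genes, all but Cpsf2, Cpsf3 and Nudt21, and 48.5% of 9239 genes.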

How the data were processed

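Poly(A) RNA of total lysate, nuclei and cytoplasm was sequenced in 35 libraries. The authors' deposited table of counts holds whole numbers per gene, and Salmon 0.14.1, DESeq2 and mm10 are named per the submitters' processing notes. The authors' RPKM values (deposited, per the file headers) served for levels between genes, marker genes and Gm20521, and 1 RPKM column that matched no sample was not used. The authors' normalized counts are a deposited signal that differs from the counts by a factor per gene and library; they served as offsets in 1 alternative, chosen after seeing the data. The authors' deposited log2 fold changes were copied where named.

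The 10 genes and the pathway lists were chosen with earlier results of these data known. All 10 are described, and from each list at most 4 genes with the lowest adjusted p among those called with knockdown could be named. Apart from the 10 and Cstf2t, each was given only in the fraction where that p was lowest. Counts were tested with edgeR 4.0.16 (quasi-likelihood, TMM, filterByExpr) in R 4.3.3, separately by fraction and once with nuclear and cytoplasmic libraries together, with Benjamini-Hochberg adjustment over all genes and a threshold of 0.05; all 10 genes passed the filter. The control nuclei to cytoplasm difference of Pabpn1, and its difference between rescued lines in nuclei, cytoplasm and ratio, were planned as tests and are given without one. DESeq2 1.42.0, other scalings, no filter, 1 fit of all libraries and each library left out were alternatives. The procedure was tested on simulated counts without shared deviations of same-numbered libraries, so that test does not cover the pairing in these data.

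Same-numbered libraries deviated together, with correlations of 0.35 to 0.79 in total lysate and 0.52 to 0.72 in nuclei, over 0.1 in all 15 pairs of each. In cytoplasm the correlations were 0.059 to 0.65, and 7 of 10 pairs passed 0.1. The numbers match the fractions of a culture, but same-numbered cytoplasmic libraries shared their deviations less clearly. Totals were 20652832 to 36102129 counts in total lysate, 11681781 to 28705620 in nuclei and 19478702 to 40105458 in cytoplasm. The fractions of a culture are not independent samples, and no spike-in is named, so values are relative to each library's total.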

Additional observations from a re-analysis of the deposited data

Results flagged for a closer look

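Fip1l1 in nuclei of rescue cells had 1 library apart from the rest. The mEx5 replicate 2 library held 96.2 CPM, and the other 3 held 106 to 107 CPM; its gap to the nearest is 0.918 of the group's range, above Dixon's critical value for 4 samples. It was 1 of 80 groups of 4 tested, where chance alone gives about 1 in 20.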

How the results depend on the processing

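Of 30 called differences, all 30 kept their call and direction without the low-count filter, under DESeq2, with scaling by library totals or by DESeq2's size factors, with all libraries in 1 fit and with the replicate block. Under the authors' factors 25 kept it and 3 reversed. The reversed calls were Papola with knockdown in total lysate (0.13), and Cstf2 (-0.057) and Cpsf6 (-0.11) in the control nuclear to cytoplasmic ratio. Fip1l1 in that ratio (-0.11) and Papola in cytoplasm of rescue cells against control (-0.16) kept their direction but no longer passed. Differences that had not been called turned as well, Papola in total lysate of rescue cells to 0.28 and Cpsf3 in the control ratio to 0.33. The cause was not tested. The number of genes called for the ratio with knockdown, 0, became 1 with DESeq2, 1 with the authors' factors and 2 with the replicate block (Cpsf1 and Cpsf6), and ranged from 0 to 1 with a library left out. For the ratio in rescue against control, 0 became 1 (Cpsf6) with the replicate block. Same-numbered cytoplasmic libraries shared their deviations less clearly than total and nuclear ones. For rescue against control in nuclei, 3 became 6 with DESeq2, 6 with all libraries in 1 fit, 6 with the replicate block and 5 with the authors' factors, with 1 to 5 when a library was left out. In total lysate 3 became 7 with the replicate block. Over all genes, rescue against control in nuclei had 2659 calls with DESeq2 and 2191 with edgeR. The shares of all genes under the block are not given. Knockdown calls in nuclei, 5, became 6 with DESeq2 and 6 with the replicate block. In total lysate knockdown calls, 4, became 5 with DESeq2 and 5 with the replicate block. Over all genes, knockdown calls in nuclei were 3329 with DESeq2 and 2903 with edgeR. In total lysate they were 4322 with DESeq2 and 4057 with edgeR, and for the ratio 783 and 475. Nuclear knockdown calls, 5, ranged from 3 to 6 with a library left out, and rescue against knockdown in cytoplasm, 0, from 0 to 1. Where leaving out a library leaves an arm with 1 sample, its spread is taken from the remaining groups. With 2 libraries per group, small differences go undetected.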
